A study of Nothobranchius furzeri with 20 samples.

Results

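The livers of 10-week-old fish were compared with those of 7-week-old fish across all genes. The samples are the 5 fish labelled 10 weeks and the 5 fish labelled 7 weeks, 10 of the 20 livers in the series, and they were taken by their age labels alone. All are male Nothobranchius furzeri, the turquoise killifish, of the strain GRZ, and each library was made from total RNA of liver. The other 10 livers, 5 each of 5 and 14 weeks, entered the filter on low counts, the scaling of the libraries and the fit that estimated the spread. The smallest library of the 20, from a fish of 5 weeks, also set the depth for thinning. Otherwise these livers are used only to place the 2 ages. The labels name no treatment, and the question the series poses is how liver expression differs between age groups.

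The turquoise killifish lives in seasonal ponds in south-eastern Africa and grows, matures and ages within weeks to months. GRZ is among its shortest-lived laboratory strains. As in other vertebrates, the liver of a fish makes most plasma proteins, stores and releases sugar and lipid, and clears metabolites, and a small number of transcripts for secreted proteins usually takes a large part of its messenger RNA.

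The deposited gene identifiers carry no names. None (0) of the 26739 matched the 38438 genes of the reference table used here, so no gene is given a name, role or position, and defining markers of liver or of other cell types could not be looked up. Genes are therefore described by their rank in mean level over the 10 fish, where rank 1 took the most reads, and 4 are given by identifier. Levels are given as CPM, reads of a gene scaled to a common library size, with each library's size adjusted by the TMM method, which assumes that most genes do not change. CPM are not divided by gene length, so a rank orders genes by reads and not by molecules. In whole tissue, a lower level from fewer cells of a type cannot be told apart from less RNA per cell.

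The depths of the 2 ages overlapped, with 24330529 to 42886761 counted reads per library at 10 weeks and 24566917 to 37122038 at 7 weeks. A count of 3 reads, the limit that a count of 0 allows, was 0.0589 to 0.144 CPM in the 10-week libraries and 0.0830 to 0.126 CPM in the 7-week libraries, covering counting error only. After thinning to equal depth, 19321 ± 274 genes had a read at 10 weeks and 19201 ± 377 at 7 weeks (mean ± SD, n = 5 each), a difference of 119 genes that was within the spread between fish (exact two-sided permutation test, p = 0.587, also 0.587 after adjustment over 3 library measures).

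Of 16475 genes with enough reads to test, 4556 (27.7%) differed between 10 and 7 weeks at an adjusted p under 0.05 in edgeR's quasi-likelihood test, and these are the genes called below. Called rises numbered 1963 (11.9% of the tested genes) and called falls 2593 (15.7%). The median rise was 2.25-fold and the median fall 2.18-fold. At an unadjusted p under 0.05 there were 6361 genes, or 38.6% of those tested. Over all tested genes the median log2 fold change was 0.03, its median size without sign 0.51 and its median standard error 0.31. The excess of falls depended on the scaling of the libraries: with upper-quartile scaling, which moved the median of all genes to 0.13 on the log2 scale, rises outnumbered falls, 2544 against 2215.

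The called changes were mostly moderate, and beyond 16-fold falls were the more frequent direction when all fish were kept, and about as frequent as rises without 7-week fish 3. At least 2-fold changes were called for 1226 rises (7.44% of the tested genes) and 1522 falls (9.24%). At 4-fold or more there were 291 rises and 390 falls, at 8-fold 75 and 117, at 16-fold 13 and 43, and at 32-fold 5 and 18. When the test itself asked for more than a 2-fold change, 539 genes passed, 187 of them higher and 352 lower at 10 weeks. Pooled over all levels, the rising genes were longer than the falling ones, with median lengths of 3045 and 2608 bases against 2806 over all tested genes. Among genes with a mean of 100 to 1000 CPM over the 10 fish the order was reversed, at 2806 bases for rises and 3364 for falls. At 1000 CPM and above it was reversed too, at 2031 and 3108 bases. The mean length of the gene a read fell on was 2747 to 3420 bases in the 10-week libraries and 3245 to 3563 in the 7-week libraries, and the part of this in the calls was not tested.

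The fish of the 2 ages often did not overlap at all. In 4019 genes (24.4% of those tested) all 5 fish of one age lay above all 5 of the other, 1550 of them higher (9.41%) and 2469 lower (15%) at 10 weeks. Of the called genes 3464 did not overlap, 1322 of the 1963 rises and 2142 of the 2593 falls. A further 555 genes did not overlap and were not called. Fish of 10 weeks varied slightly more among themselves than fish of 7 weeks, with a median SD of log2 CPM of 0.40 against 0.34, and the SD was higher at 10 weeks in 56.6% of the tested genes.

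**Figure D1:**
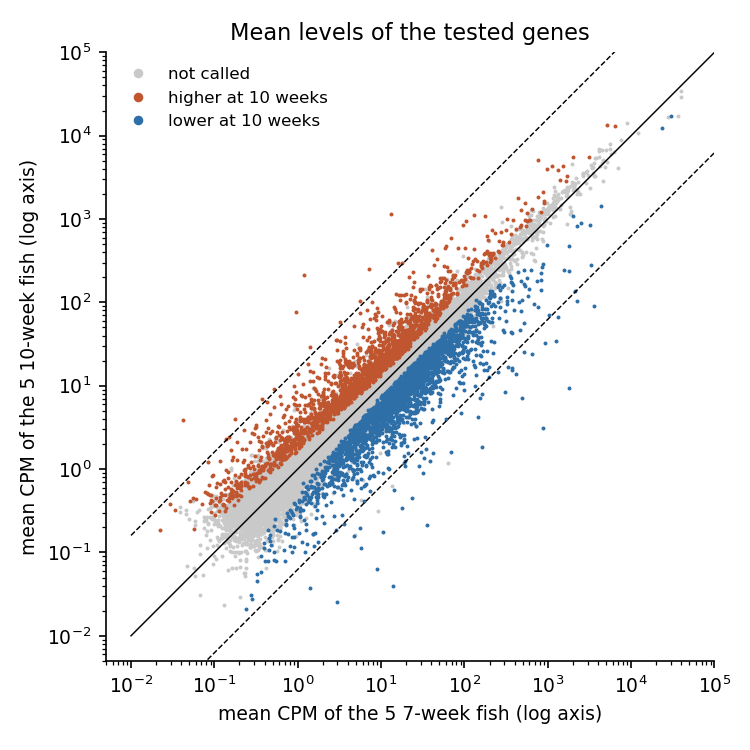
Mean CPM of each tested gene in the 5 10-week fish (vertical log axis) against the 5 7-week fish (horizontal log axis), with called rises and falls coloured, the solid line at equal levels and the dashed lines at 16-fold. The called genes lie on both sides along the whole range (1963 higher and 2593 lower at 10 weeks, an order that turns round under upper-quartile scaling), and more falls than rises pass the dashed lines, 43 against 13 by the fitted fold change (40 against 39 without 7-week fish 3).

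Rises and falls were spread unevenly over the range of abundance. Genes were put in 5 classes by their mean CPM over the 10 fish. Among the 2935 genes under 1 CPM, 9.44% were called, with 184 rises and 93 falls. Among the 6445 genes of 1 to 10 CPM, 26.6% were called, with 756 rises and 956 falls. The class of 10 to 100 CPM held 6101 genes and the highest share of calls, 37.1%, with 872 rises and 1392 falls. Of 828 genes of 100 to 1000 CPM 32.7% were called, with 132 rises and 139 falls, and of the 166 genes at 1000 CPM and above 19.3%, with 19 rises and 13 falls.

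The direction of the calls thus turned over along the range. Rises made up 66.4% of the calls under 1 CPM, 44.2% at 1 to 10 CPM, 38.5% at 10 to 100 CPM, 48.7% at 100 to 1000 CPM and 59.4% at 1000 CPM and above. Under upper-quartile scaling all of these shares were higher, and rises outnumbered falls in each class but that of 10 to 100 CPM, with 219 rises and 78 falls, 948 and 794, 1165 and 1200, 185 and 131, and 27 and 12 in the 5 classes. The lowest and highest classes had more rises than falls, and the class of 10 to 100 CPM more falls than rises, under the other scalings, DESeq2 and limma-voom as well. These use the same fish and the same 16475 genes, which passed a filter on reads in enough libraries of any age. A low gene that is high at 10 and 14 weeks can pass it through more libraries than one high at 7 weeks alone. The part of this filter in the excess of rises under 1 CPM was not tested. No test between classes was made, and the split in the highest class rests on few calls. The near balance at 100 to 1000 CPM did not keep its sign: by DESeq2 there were 167 rises and 148 falls.

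Sizes of change also differed by class. The median called change was 3.11-fold for rises and 3.39-fold for falls under 1 CPM, where the median standard error of the log2 fold change was 0.58. It was lowest at 10 to 100 CPM, 2.02-fold for rises and 2.0-fold for falls, where the median standard error was 0.24. At 1000 CPM and above the median rise was 2.43-fold and the median fall 3.80-fold, with a median standard error of 0.28. Over all genes of a class, called or not, the median size of the log2 fold change was 0.59 under 1 CPM, about the size of its standard error there, 0.51, 0.49 and 0.49 in the middle classes, and 0.42 at 1000 CPM and above. Where the standard error is smaller, smaller changes can be called, which raises the share called and lowers the median called change. The part of this in the differences between classes was not tested.

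**Figure D2:**
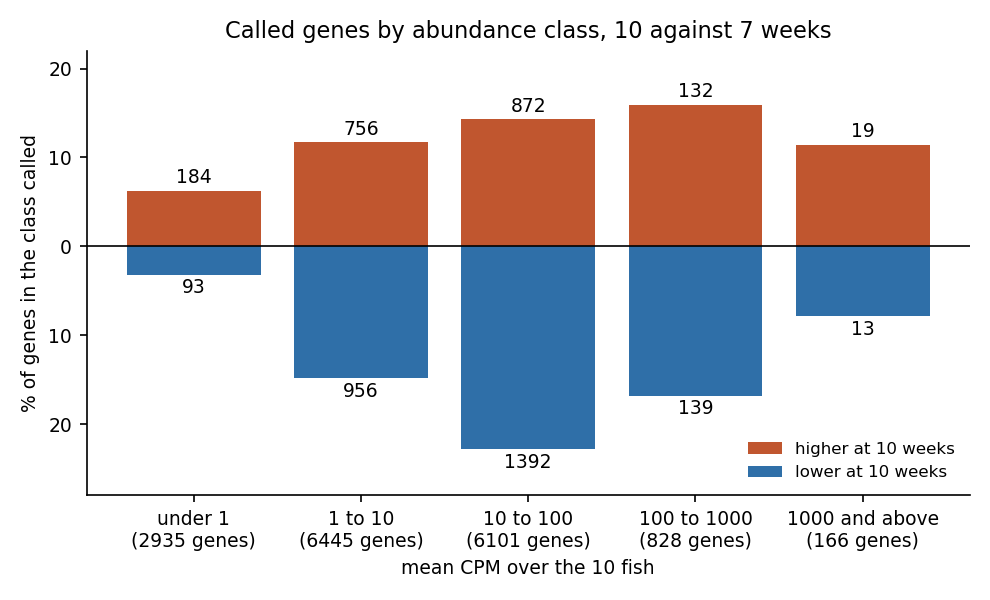
Share of the tested genes of each abundance class (horizontal axis, mean CPM over the 10 fish) that was called, with rises at 10 weeks above the line, falls below it and the number of genes on each bar. Falls exceed rises most at 10 to 100 CPM (872 rises, 1392 falls), while rises exceed falls under 1 CPM (184 and 93) and at 1000 CPM and above (19 and 13); under upper-quartile scaling rises exceed falls in every class except 10 to 100 CPM.

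The 166 genes at 1000 CPM and above took about the same part of the reads at both ages. Their share was 51.8% to 59.1% with a median of 56.1% in the 10-week libraries, and 54.5% to 57.0% with a median of 55.4% in the 7-week libraries. The share of the 20 most abundant genes was 24.1% ± 3.84 at 10 weeks and 28.6% ± 1.06 at 7 weeks (SD, n = 5 each), a difference of -4.50 percentage points (exact two-sided permutation test over all splits of the 10 fish, p = 0.0476, adjusted over 3 measures 0.143, smallest p the design allows 0.00794). It was 20.6% to 22.7% in 10-week fish 2, 3 and 4 and 27.6% and 28.7% in 10-week fish 5 and 1, against 27.1% to 29.6% in the 7-week fish, so 3 of the 5 10-week fish lay below all 7-week fish and the others within their range. The 100 most abundant genes took 46.9% ± 2.95 at 10 weeks and 48.0% ± 0.761 at 7 weeks, a difference of -1.18 points that was within the spread (exact permutation test, p = 0.357, adjusted 0.536).

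Among the 20 most abundant genes 4 were called, 2 rises and 2 falls, a share of 20% against the 27.7% of all tested genes. The lists of the 20 most abundant genes at 10 and at 7 weeks shared 16 members. The 3 genes of highest rank were not called. The gene of rank 1, which is 783 bases long, stood first at both ages, with 34486 ± 12013 CPM at 10 weeks and 39749 ± 7340 CPM at 7 weeks (log2 fold change -0.20, adjusted p = 0.654 by edgeR). The gene of rank 2 is 6210 bases long and had 29072 ± 6528 CPM at 10 weeks and 39274 ± 16562 CPM at 7 weeks (-0.43, adjusted p = 0.359 by edgeR). Per length these 2 genes were far apart, at a mean of 42486 RPKM at 10 weeks and 51024 RPKM at 7 weeks for rank 1, and 4734 and 6450 RPKM for rank 2. The gene of rank 3 had a mean of 17427 CPM at 10 weeks and 36163 CPM at 7 weeks, but 10-week fish 1 and 5 at 30561 and 27520 CPM lay within the 7-week values of 19415 to 47464 CPM, and the log2 difference of -1.05 missed the threshold (adjusted p = 0.0596 by edgeR).

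Among the called genes, the largest loss of reads was in the gene of rank 4, which is 5098 bases long. It had 20724, 16511, 12357, 14678 and 21422 CPM in 10-week fish 1 to 5, and 28045, 32882, 36514, 27468 and 23905 CPM in 7-week fish 1 to 5. Every 10-week fish lay below every 7-week fish. Its log2 fold change was -0.80 with a standard error of 0.24 (adjusted p = 0.0181 by edgeR). In 30 alternatives, the test against a 2-fold change not counted, this gene lost its call only without 10-week fish 3 (adjusted p = 0.0639 by edgeR). Its means at 5 and 14 weeks, 27188 and 24928 CPM, were nearer to that of 7 weeks than to that of 10 weeks. The other fall among the first 20, at rank 6 (2241 bases), averaged 12471 ± 4849 CPM at 10 weeks and 23199 ± 7103 CPM at 7 weeks. It was 0.90 lower on the log2 scale at the edge of the threshold (adjusted p = 0.0499 by edgeR), overlapped through 7-week fish 3 at 12303 CPM, and was lost in 16 of 30 alternative analyses, the test against a 2-fold change not counted.

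Among the called genes, the largest gain was in the gene of rank 10, which is 1950 bases long. It had 17578, 18553, 7250, 10006 and 13530 CPM in 10-week fish 1 to 5, against 6369, 5471, 4268, 4298 and 5289 CPM in 7-week fish 1 to 5. All 10-week fish were higher than all 7-week fish, although the 10-week values spread over a wider range. The log2 fold change was 1.38 with a standard error of 0.34 (adjusted p = 0.00497 by edgeR), it was called in all 30 alternatives, and the gene moved to 7th place at 10 weeks, against 16th place at 7 weeks. The rise at rank 9 (2385 bases) was 12991 ± 4323 CPM at 10 weeks and 6359 ± 1773 CPM at 7 weeks, a log2 fold change of 1.03 (adjusted p = 0.0346 by edgeR) that was lost in 7 of 30 alternatives. At ranks 7 and 18 the fish of the 2 ages did not overlap and yet neither gene was called. The gene of rank 7 was higher at 10 weeks, at 14218 ± 2974 CPM against 9026 ± 1718 CPM at 7 weeks (adjusted p = 0.104 by edgeR), and that of rank 18 lower, at 4145 ± 1008 CPM against 7033 ± 1546 CPM (adjusted p = 0.0798 by edgeR).

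**Figure D3:**
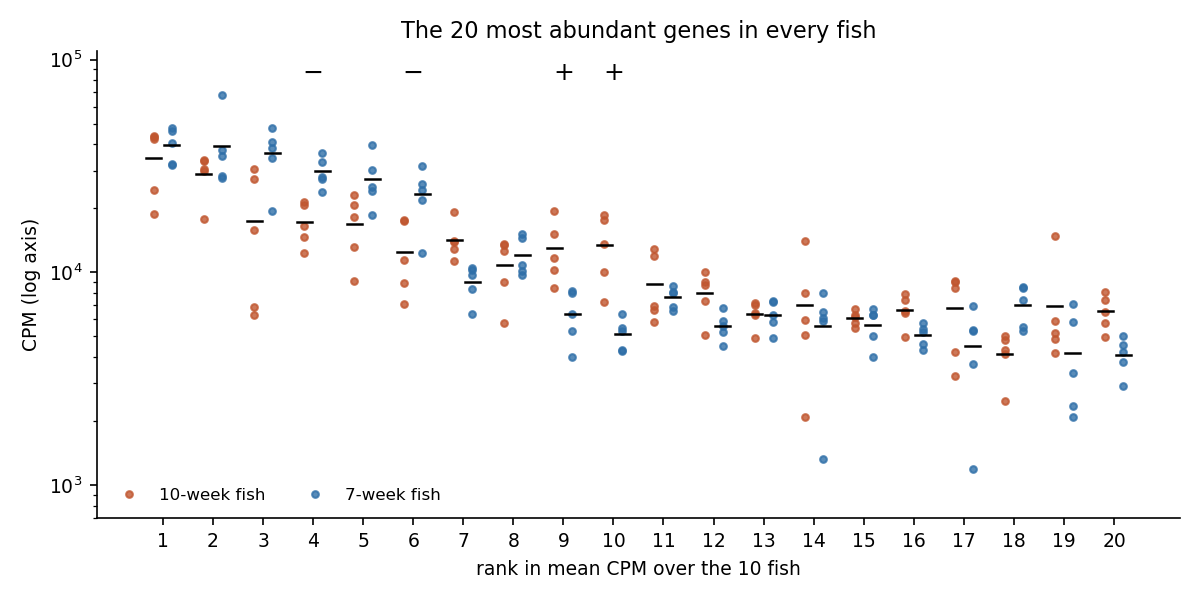
CPM of the 20 genes with the most reads (vertical log axis, genes by rank) in each 10-week fish (left of each pair) and each 7-week fish (right), with bars at the means and + or − over called genes. Ranks 4 and 6 are marked lower and ranks 9 and 10 higher at 10 weeks; the fish of the 2 ages separate fully at ranks 4, 7, 9, 10 and 18.

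Of the 100 most abundant genes 21 were called (21% against 27.7% of all tested genes), 12 rises and 9 falls, and 80 genes were common to the lists of the 100 most abundant of each age. The median size of the log2 fold change among the 100 was 0.43, against 0.51 over all tested genes. Of the 21 calls 11 held in each of the 30 alternatives and 10 were lost in at least 1, and 3 passed the test against a 2-fold change. Among the 500 most abundant genes 75 rises and 54 falls were called, together 25.8%.

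Within the 100, the greatest changes were the falls at ranks 83 and 87. The gene of rank 83 (2590 bases) had 43.8, 26.0, 36.1, 176 and 167 CPM in 10-week fish 1 to 5 and 4360, 4541, 2874, 2995 and 2915 CPM in 7-week fish 1 to 5. The highest 10-week fish was far below the lowest 7-week fish, with a log2 fold change of -5.30 and a standard error of 0.55 (adjusted p = 3.67e-06 by edgeR), and it stood at place 34 by reads at 7 weeks. The gene of rank 87 (2226 bases) averaged 282 ± 148 CPM at 10 weeks and 3264 ± 845 CPM at 7 weeks, a log2 fold change of -3.53 (adjusted p = 5.2e-05 by edgeR). Milder falls with no overlap were found at rank 88, with a mean of 904 CPM at 10 weeks and 2499 CPM at 7 weeks, at rank 98, with 1076 and 2014 CPM, and at rank 100, with 817 and 2242 CPM.

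The rises within the 100 were smaller than the falls at ranks 83 and 87. The largest of the remaining falls, at rank 74 (log2 fold change -1.94, no overlap), was smaller than the greatest rise. At rank 47 (921 bases) the 10-week fish had 3940, 9027, 3794, 6123 and 2643 CPM and the 7-week fish 1118, 394, 693, 461 and 1193 CPM. The groups did not overlap, and the log2 fold change of 2.73 with a standard error of 0.57 was the greatest among these rises (adjusted p = 0.00171 by edgeR). Rank 33 (1176 bases) had 5527 ± 1231 CPM at 10 weeks and 1983 ± 583 CPM at 7 weeks, and rank 48 (3446 bases) 4313 ± 1298 CPM and 1536 ± 428 CPM. Rank 57 (2031 bases) was called at an adjusted p of 0.0455 by edgeR with 2565 to 6424 CPM at 10 weeks, but its 7-week fish ran from 83.1 to 2337 CPM and the call was lost in 17 of 30 alternatives.

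Among the called genes, much of the difference in reads belonged to few genes. Summed over the called genes, mean CPM was higher at 10 weeks by 101484 in the rises and lower by 117901 in the falls. The 10 greatest differences held 37.7% of the sum of the rises and 36.1% of that of the falls, and 50% of each sum was reached with 22 rises and 28 falls. The single greatest of these were 8244 CPM gained at rank 10 and 12624 CPM lost at rank 4. Genes that were not called are left out, among them rank 3, whose means of 17427 and 36163 CPM lay further apart than those of rank 4. The 166 genes at 1000 CPM and above took a median of 56.1% of the reads at 10 weeks and 55.4% at 7 weeks. Sums of CPM therefore lean to few abundant genes in any case.

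No gene met a strict definition of a switch. A gene counted as switched on at 10 weeks if it had at most 3 reads in every 7-week fish and at least 1 CPM in every 10-week fish, and as switched off if the reverse held. Over all 26739 identifiers there were 0 of each kind, and with the silent age allowed at most 10 reads there were 2 on and 1 off, or with 20 reads 14 on and 6 off. The limits of 10 and 20 reads were chosen after seeing the data. At least 1 CPM was reached in every 10-week fish by 12086 identifiers, in every 7-week fish by 12101 and in all 10 fish by 11463. At most 3 reads in every fish was found for 7796 identifiers at 10 weeks, for 8131 at 7 weeks and for 7317 at both.

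With 1 fish of the expressing age allowed to fall short, 1 gene met each definition, both at low levels. The gene switched on, at rank 12110 (1771 bases), had 0.533, 5.71, 3.36, 7.43 and 2.35 CPM in 10-week fish 1 to 5 and 1, 1, 2, 0 and 2 reads in 7-week fish 1 to 5. Fish 1 was the low one at 10 weeks, and without it the strict definition was met. The fitted log2 fold change was 6.42 (adjusted p = 0.000237 by edgeR). The mean of this gene was 0.194 CPM at 5 weeks and 5.44 ± 8.11 CPM at 14 weeks. The gene switched off, at rank 9851 (961 bases), had 3, 1, 1, 1 and 3 reads in 10-week fish 1 to 5 and 9.29, 4.76, 0.216, 2.83 and 28.0 CPM in 7-week fish 1 to 5. Here 7-week fish 3 was the low one, and without it the strict definition was met. The fitted log2 fold change was -7.14 (adjusted p = 0.000229 by edgeR), and the mean was 0.0422 CPM at 14 weeks.

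Large but incomplete changes were more common than switches. The 43 falls of at least 16-fold included 20 genes with a mean of at least 100 CPM at 7 weeks and 5 of at least 1000 CPM. Of the 43, 37 did not overlap, where 82.6% of all called falls did not. Among all tested genes 15% were lower at 10 weeks without overlap. At rank 184 (2527 bases) the 10-week fish had 10.7, 8.69, 6.02, 13.9 and 7.47 CPM and the 7-week fish 2512, 2637, 1588, 1369 and 887 CPM. The highest 10-week fish was far below the lowest 7-week fish here too (log2 fold change -7.59, adjusted p = 1.23e-06 by edgeR). Its mean was 168 CPM at 5 weeks and 33.2 CPM at 14 weeks. Within these falls the 10-week fish were not all alike. At rank 309 (3219 bases) 10-week fish 2 and 3 had 10.8 and 13.0 CPM and fish 5 had 71.5 CPM, against 639 to 1032 CPM at 7 weeks.

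The 13 rises of at least 16-fold did not overlap in any case, where 1322 of all 1963 called rises did not. Among all tested genes 9.41% were higher at 10 weeks without overlap. Of the 13 rises, 6 reached a mean of at least 100 CPM at 10 weeks. The most abundant, at rank 272 (2657 bases), had 45.1, 1956, 764, 1365 and 1598 CPM in 10-week fish 1 to 5 and 2.86, 4.90, 36.4, 1.71 and 19.3 CPM in 7-week fish 1 to 5. Fish 1 was far below the other 10-week fish and still above the highest 7-week fish (log2 fold change 6.46, standard error 1.54, adjusted p = 0.00409 by edgeR). The number of such rises depended on a pair of 7-week fish. Without 7-week fish 3 it was 39, and without 7-week fish 5 it was 27, and falls in the same fits numbered 40 and 53. The excess of large falls, 43 against 13 rises with all fish, was thus 40 against 39 without 7-week fish 3. Of the 39 rises found without 7-week fish 3, 27 were not 16-fold with it, so a high level of that fish in them follows from the choice of genes. Over the 39, 7-week fish 3 had a median of 3.51 CPM, near the median of 5.00 CPM of the 10-week means and above that of 0.139 CPM of the other 7-week fish. It exceeded the lowest 10-week fish in 22 of the 39, and 7-week fish 5 did so in 1 of its 27. These counts and the 16-fold limit were chosen after seeing the data.

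Some large falls rested on 1 liver. In 8 called falls, 7-week fish 3 held 81.5% to 98.6% of the summed CPM of the 7-week fish, and 6 of the 8 were among the falls of at least 16-fold. The 8 genes together had 0.900 to 2.26 CPM in the 10-week fish, 323 CPM in 7-week fish 3 and 2.23 to 3.87 CPM in the other 7-week fish. Their adjusted p were 0.0196 to 0.0472 by edgeR, and without that fish none (0 of 8) was called, the lowest adjusted p being 0.235. The genes were picked for their level in that fish, so the loss of these calls follows from the choice. At 5 weeks the same 8 genes had 1730 and 1325 CPM in fish 4 and 5 and 2.24 to 13.6 CPM in the other 3 fish. No called rise (0) had more than 80% of its 10-week CPM in 1 fish.

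The 2 rises and 2 falls with the smallest adjusted p among called genes without overlap and with at least 5 CPM in the higher age were taken as examples, out of 1021 such rises and 1863 such falls. Nfu_g_1_018832, of rank 2095 and 8846 bases, had 67.0, 75.5, 87.0, 79.4 and 68.27 CPM in 10-week fish 1 to 5 and 18.4, 17.2, 18.2, 10.7 and 20.6 CPM in 7-week fish 1 to 5. The values within each age lay close together, and the log2 fold change was 2.15 with a standard error of 0.21 (adjusted p = 2.51e-06 by edgeR). Nfu_g_1_015914, of 1215 bases, had 1083, 1573, 782, 1062 and 1006 CPM in 10-week fish 1 to 5 and 187, 224, 138, 158 and 176 CPM in 7-week fish 1 to 5. Its lowest 10-week value was well above its highest 7-week value (log2 fold change 2.64, standard error 0.28, adjusted p = 4.09e-06 by edgeR).

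Of the falls, Nfu_g_1_004054 (rank 481, 1673 bases) had 7.12, 7.59, 5.34, 8.24 and 7.06 CPM in 10-week fish 1 to 5 and 730, 641, 420, 399 and 249 CPM in 7-week fish 1 to 5. The 10-week fish were nearly equal while the 7-week fish spread widely (log2 fold change -6.11, standard error 0.43, adjusted p = 1.3e-07 by edgeR). Nfu_g_1_022801 (rank 250, 3279 bases) had 42.5, 26.4, 33.1, 36.5 and 33.8 CPM in 10-week fish 1 to 5 and 1455, 2032, 1049, 1152 and 565 CPM in 7-week fish 1 to 5. In both falls 7-week fish 5 was the lowest of its age (for the second gene log2 fold change -5.18, standard error 0.40, adjusted p = 1.59e-07 by edgeR). All 4 genes were called in each of 31 alternatives. The alternatives reuse the same fish, and the genes were chosen for their small adjusted p, which favoured this result. At 14 weeks their means were 76.3, 909, 14.8 and 33.8 CPM in the order given, nearer to the 10-week than to the 7-week means, although 4 of the 5 14-week fish lay above the highest 10-week fish in Nfu_g_1_004054. At 5 weeks they were 50.5, 446, 42.3 and 90.5 CPM, between those of 10 and 7 weeks.

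**Figure D4:**
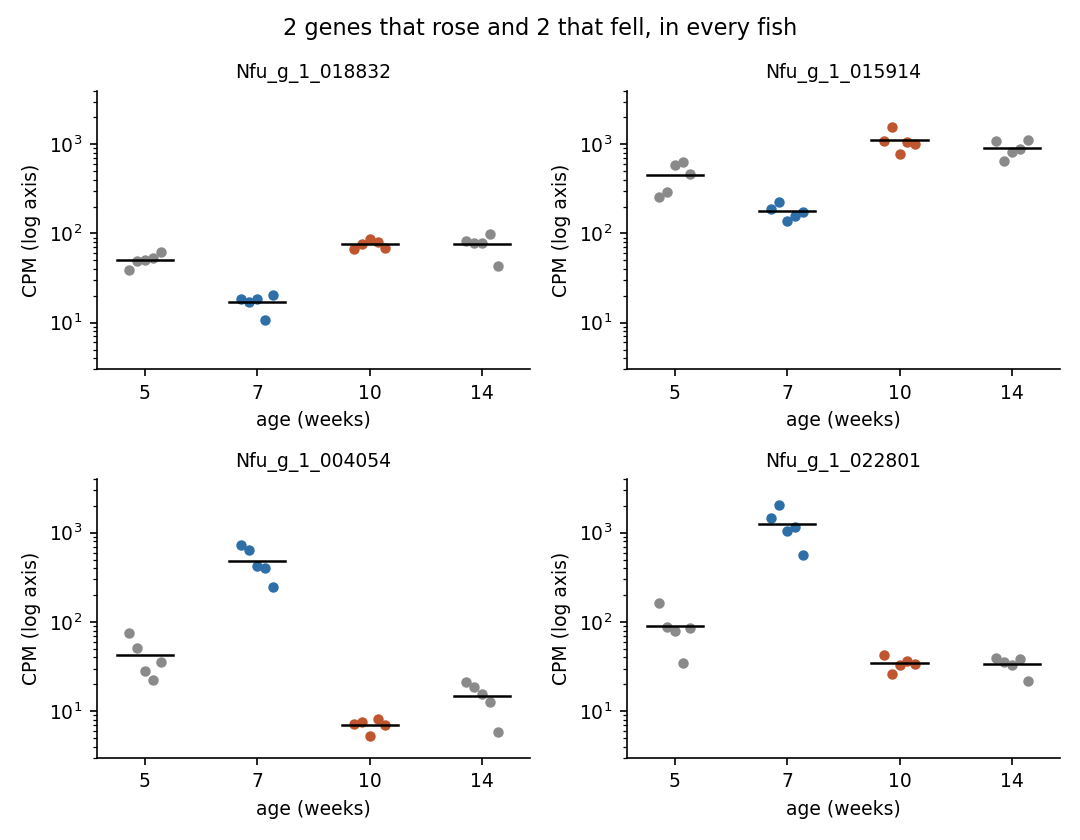
CPM (vertical log axis) of Nfu_g_1_018832 and Nfu_g_1_015914, which rose, and Nfu_g_1_004054 and Nfu_g_1_022801, which fell, in every fish by age in weeks, with bars at the means. The 10-week and 7-week fish do not overlap in any of the 4, which was a condition of their choice. The 14-week means (76.3, 909, 14.8 and 33.8 CPM) lie nearer to those of 10 than of 7 weeks.

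Each fish was then set against genes it had not helped to choose. The comparison was refitted without 1 fish, and it was counted in how many of the genes called there the left-out fish lay on the side of its own age, past the midpoint of the 2 age means of the other fish. The share was 84.6%, 88.7%, 93.5%, 87.4% and 87.1% for 10-week fish 1 to 5 and 94.8%, 94.9%, 79.0%, 97.9% and 71.6% for 7-week fish 1 to 5. Over all tested genes it was 61.4% to 77.9%. All 10 fish were thus on their own side in most called genes, and the shares of 7-week fish 3 and 5 were the lowest of the 10.

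The share was lower in the rises than in the falls in 9 of the 10 fish, 10-week fish 4 being the exception, and the gap was widest in 7-week fish 3 and 5. 7-week fish 3 was on its own side in 65.4% of the rises and 90.4% of the falls, and 7-week fish 5 in 62.0% of the rises and 79.0% of the falls. The lowest shares among the other 8 fish were 81.0% of the rises in 10-week fish 1 and 87.3% of the falls in 10-week fish 1 and 4. On a scale on which the other fish of 7 weeks average 0 and those of 10 weeks 1, the left-out 10-week fish 1 to 5 lay at 0.80, 1.01, 0.998, 0.92 and 0.95, and the left-out 7-week fish 1 to 5 at 0.05, -0.14, 0.32, -0.10 and 0.31. No fish crossed the middle. Of the 7-week fish, fish 5 was the one nearest to the 10-week mean in 47.2% of the called genes, and of the 10-week fish, fish 1 was the one nearest to the 7-week mean in 29.0%.

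The number of calls varied with the fish left out, from 3602 without 7-week fish 4 to 4729 without 7-week fish 3 among the 10 fish compared. Between 78.5% and 91.4% of the 4556 calls were kept, and no called gene (0) changed direction. Each refit kept all the other fish, so a change of direction could hardly occur and its absence is no check. A total of 3116 of the 4556 genes, 1234 rises and 1882 falls, was called with all fish and in each of the 10 refits. Their median change was 1.30 on the log2 scale without sign, against 0.85 for the other called genes. Larger changes keep a call more easily, so this difference follows from the choice of genes.

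The 14-week livers lay mostly on the 10-week side of these genes, and the 5-week livers were divided. In mean log2 CPM, 14-week fish were nearer to 10 than to 7 weeks in 93.9% of the rises and 97.0% of the falls, against 75.0% of all tested genes. At 5 weeks this held for 62.1% of the rises and 73.0% of the falls, against 59.6% of all tested genes, so for the rises the share was near that of all genes. Of the 13 rises of at least 16-fold, 12 were nearer to 10 weeks at 14 weeks and 2 at 5 weeks, and of the 43 falls 42 and 28. On the scale over the called genes, with the mean of 7 weeks at 0 and that of 10 weeks at 1, the 5 fish of 14 weeks lay between 0.78 and 1.08. The fish of 5 weeks were spread over 0.37, 0.29, 0.78, 0.85 and 0.70, with fish 1 and 2 on the 7-week side. The calls were chosen for a difference between 10 and 7 weeks, so the other ages share these fish as the points of reference.

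**Figure D5:**
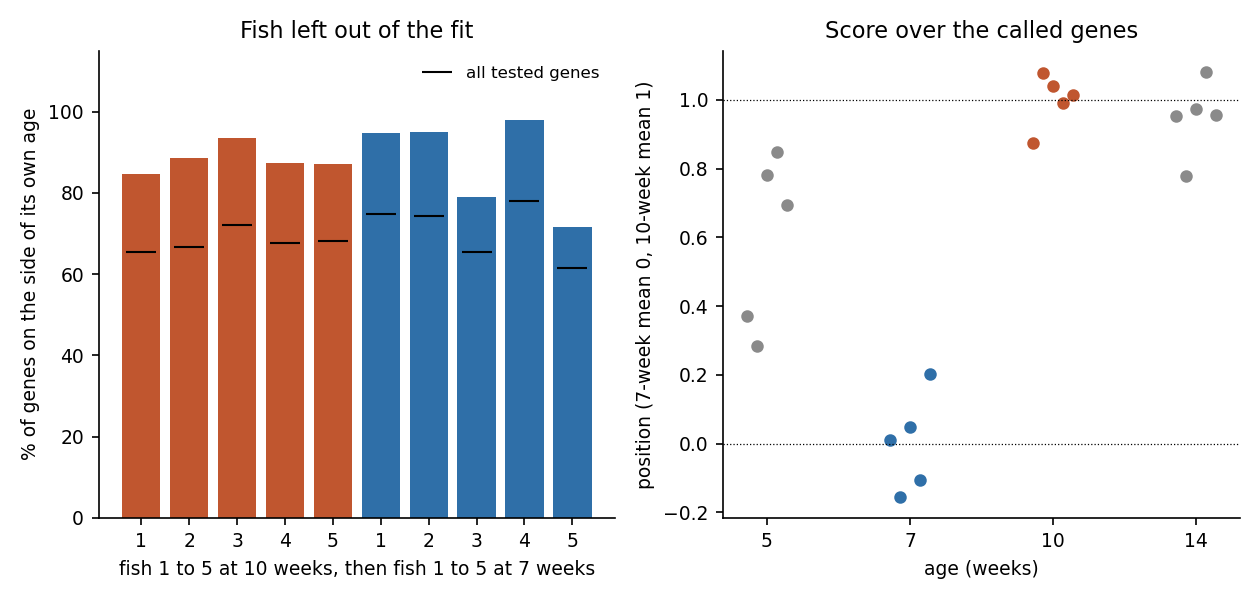
Left, the share of genes called without a fish in which it lay on the side of its own age (vertical axis, per cent, bars) for the 10-week fish and then the 7-week fish, with dashes for all tested genes. Right, the position of each fish over the called genes by age in weeks, with 7 weeks averaging 0 and 10 weeks 1. The shares run from 84.6% to 93.5% at 10 weeks and from 71.6% to 97.9% at 7 weeks, and all 14-week fish lie between 0.78 and 1.08.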

How the data were processed

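RNA-seq reads were counted in 20 liver libraries. The authors deposited read counts per gene as whole numbers, and the submitters' processing notes name CASAVA 1.8.2 (base calling), STAR 2.4.1d (alignment) and featureCounts 1.4.6-p4 (counting). The genome build is not given in the sources used here, and neither are the gene models or how reads were assigned. Per the labels' protocols the library kit was TruSeq RNA v2, which does not mark strand. Reads where genes of opposite strands overlap could therefore not be told apart by strand. How reads of near-identical copies were assigned is not known. The authors also deposited an RPKM table (reads scaled by gene length and library size). Its divisors were found to run through a cycle of 25 values from cell to cell rather than following each library's total (residual SD 9.83e-05 on the log2 scale with the cycle and 0.227 with 1 divisor). It was used only for the gene lengths it implies and in 1 alternative, and RPKM given here were rebuilt with each library's own total.

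The test used edgeR 4.0.16 in R 4.3.3: filterByExpr by age, TMM factors, 1 mean per age over all 20 libraries, a quasi-likelihood F-test of 10 minus 7 weeks, and Benjamini-Hochberg adjustment over 16475 genes. Standard errors are the log2 fold change over the square root of F. Groups follow the age labels. Fish numbers follow accession order and only name fish. Whether each library is a separate animal is not stated beyond its own number, so a p-value here measures the spread between libraries, which may be technical in part. The labels give no tanks, dates or sequencing batches, so a difference of that kind between the ages could not be told apart from age. No 2 libraries of an age agreed within sampling noise (smallest chi-square per degree of freedom 64.8). In simulated counts with known changes, 29% of 100 genes changed 2-fold and 86% of 100 changed 4-fold were recovered, with 3 false calls among 16328 genes. Only these genes were changed there, all with a mean above 1 CPM, and all others were equal at every age. With 4556 calls the data differ from that setting, so neither the recovery nor the number of false calls carries over to them. Log2 CPM used a prior count of 2, and thinning went to 22529235 reads, the smallest library. Identifiers were printed only for the 2 rises and 2 falls with the smallest adjusted p among called genes without overlap whose higher age averaged 5 CPM or more. Other genes were described by rank: those called among the 20 most abundant, those nearest to a switch and, chosen after their values were seen, further genes among the 100 most abundant or changed at least 16-fold. Lists of marker genes could not be applied. The members, lists and comparisons were chosen with earlier results of these data known. Alternatives were other scalings, no filter, DESeq2 1.42.0, limma-voom (limma 3.58.1), the 10 libraries alone, RPKM with pseudocounts of 0.1 and 1, a test against a 2-fold change and leaving out each fish.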

Additional observations from a re-analysis of the deposited data

How the results depend on the processing

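No paired analysis was possible because the labels give no replicate numbers shared between ages. The count of calls stayed within 1.5 times of 4556 in 29 of 31 alternatives. The exceptions were the deposited RPKM, with 2186 calls (1144 rises, 1042 falls), and the test against a 2-fold change, with 539 (187 rises, 352 falls; 3 among the 100 most abundant). DESeq2 called 5154 genes, limma-voom 4693, the 10 libraries alone 5496 and no filter 4132. Only upper-quartile scaling and the deposited RPKM gave more rises than falls. With 1 fish left out, calls were 3602 to 5057, rises 1388 to 2186, falls 2144 to 2871 and calls among the 100 most abundant 15 to 22. Rises of at least 16-fold were then 12 to 39 and falls of that size 37 to 53. Genes without overlap were 4132 to 5005, but fewer fish separate more easily, so this range does not check the 4019 of all fish. The difference in the share of the 20 most abundant genes then ran from -5.66 to -3.64 points, that of the 100 from -2.10 to -0.40 points and that in detected genes from 3.85 to 248.

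Classes by rebuilt RPKM at the same bounds held 654, 2611, 1151, 126 and 14 calls, since dividing by length moves genes between classes. Among these same filtered genes, rises still exceeded falls in the lowest class (412 and 242) and in the highest (11 and 3). Rises and falls of at least 16-fold numbered 4 and 24 on log2(RPKM + 1), which shrinks changes of low genes. Switches on numbered 1 at 0.5 CPM, 1 in 4 of 5 fish and 0 to 1 with 1 fish left out, and switches off 0, 1 and 0 to 1. With at most 10 reads they were 2 on and 1 off, and with 20 reads 14 and 6. Genes under 1 CPM were measured least precisely, with a median standard error of 0.58 and a median SD between fish of 0.62 at 10 weeks and 0.63 at 7 weeks, against 0.31 and 0.26 at 10 to 100 CPM; the part of depth in this was not tested.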

Other observations

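Called genes with more than 50% of their age's summed CPM in a single fish numbered 47. Of these, 21 were falls held by 7-week fish 3 and 7 were falls held by 7-week fish 2, and 7 were rises held by 10-week fish 5. No reads in any 10-week fish beside a mean of at least 1 CPM at 7 weeks was found for 2 identifiers, and the reverse for 0. None (0) of 24 groups of 5 values examined for a lone sample far from the rest was set apart by Dixon's criterion. These 24 groups cannot speak for single genes at large, and the 8 called falls described above did rest on 7-week fish 3.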
